A study of Mus musculus with 39 samples.

Results

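The subunits of oxidative phosphorylation were examined in the livers of male C57BL/6J mice exposed to a trained aggressor mouse (AggE) or to the same box without an aggressor (Ctrl). The set held every nuclear mouse gene whose symbol begins with Nduf, Uqcr, Cox4i, Cox5, Cox6, Cox7, Cox8 or Atp5, together with Sdha, Sdhb, Sdhc, Sdhd, Cyc1 and Cycs, found on the arrays by RefSeq accession and read from the brightest probe of each gene. The rule found 98 protein-coding genes, of which 90 had a RefSeq probe, out of 17013 genes with such a probe. Pseudogenes that carry these names (19) were left out, and Ndufa4l2, Ndufa11, Ndufb1 and 5 others were not analysed here. The 90 members comprised 35 genes of complex I, 5 complex I assembly factors (Ndufaf genes), 4 of complex II, 9 of complex III, cytochrome c, 19 of complex IV and 17 of complex V. Ndufa4 was counted with complex IV, to which its protein is now assigned.

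Oxidative phosphorylation takes place in the inner mitochondrial membrane. Complex I accepts electrons from NADH and complex II from succinate, coenzyme Q carries them to complex III, cytochrome c carries them on to complex IV, which reduces oxygen, and the proton gradient built on the way drives ATP synthesis by complex V. In the liver this chain pays for gluconeogenesis, urea synthesis and lipid metabolism, and nearly all of its subunits are encoded in the nucleus.

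Mice were exposed for 6 hrs daily on 5 or 10 days, Ctrl mice followed the same schedule, and all mice were housed singly and met the cue of the aggressor in a partition test shortly before collection. The groups were Ctrl (n = 4) and AggE (n = 5) at 24 hrs post-5-day stressor, Ctrl (n = 4) and AggE (n = 5) at 24 hrs post-10-day stressor, Ctrl (n = 4) and AggE (n = 5) at 1.5 wks post-5-day stressor, and Ctrl (n = 6) and AggE (n = 6) at 4 wks post-10-day stressor. Each of the 39 livers was hybridised in Cy5 on 1 array against a common mouse reference RNA in Cy3, so a value is the log2 ratio of liver over reference, without a dye swap. The groups follow the description given for each replicate. Other labels differ from it: a second label gives AggE livers at 24 hrs post-5-day stressor 1 day of exposure, and at 1.5 wks the titles of all 5 AggE livers carry the prefix of the 10-day AggE livers, while 1 Ctrl liver carries a prefix that no other liver has. The RNA is from whole liver, in which fewer cells of a type and less RNA per cell cannot be told apart.

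The hepatocyte markers Alb, Apoa1 and Ttr were well above background on all 39 arrays, and the mean log2 ratio of 9 hepatocyte genes lay between 4.91 and 6.53 in every liver. Between 15.2% and 70.4% of the probes on an array were well above background in Cy5, and no Cy5 spot was saturated. At 24 hrs no slide held both Ctrl and AggE livers, so exposure and slide cannot be told apart there. At 1.5 wks and at 4 wks a shared slide held AggE and Ctrl livers. Of the 90 members, 74 were well above background on all 39 arrays. The members were bright, with 83 of them among the brightest 4254 genes. Ndufaf7 and Cox7b2 were not well above background on any array.

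The median member lay below Ctrl in AggE livers at 24 hrs after both regimens, above Ctrl at 1.5 wks, and close to Ctrl at 4 wks. To compare mice, each gene was centred on its mean over the 39 arrays and the median over the 90 members was taken in each liver. At 24 hrs post-5-day stressor this median was 0.09, 0.13, 0.23 and 0.21 in the 4 Ctrl livers and 0.13, 0.07, 0.08, 0.01 and -0.06 in the 5 AggE livers. The groups overlapped by 1 AggE liver (mouse 1), which lay above 2 Ctrl livers. At 24 hrs post-10-day stressor the Ctrl livers were at 0.12, 0.22, 0.21 and 0.20 and the AggE livers at 0.07, 0.04, 0.03, -0.02 and 0.11, and the groups did not overlap. At 1.5 wks the Ctrl livers were at -0.17, -0.12, -0.45 and -0.28 and the AggE livers at -0.04, -0.12, -0.04, -0.01 and -0.20, with overlap. At 4 wks both groups spread around 0, from -0.11 to 0.11 in Ctrl and from -0.11 to 0.09 in AggE livers. These medians are a description of the set, since its genes share arrays and no test over the members was made.

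**Figure D1:**
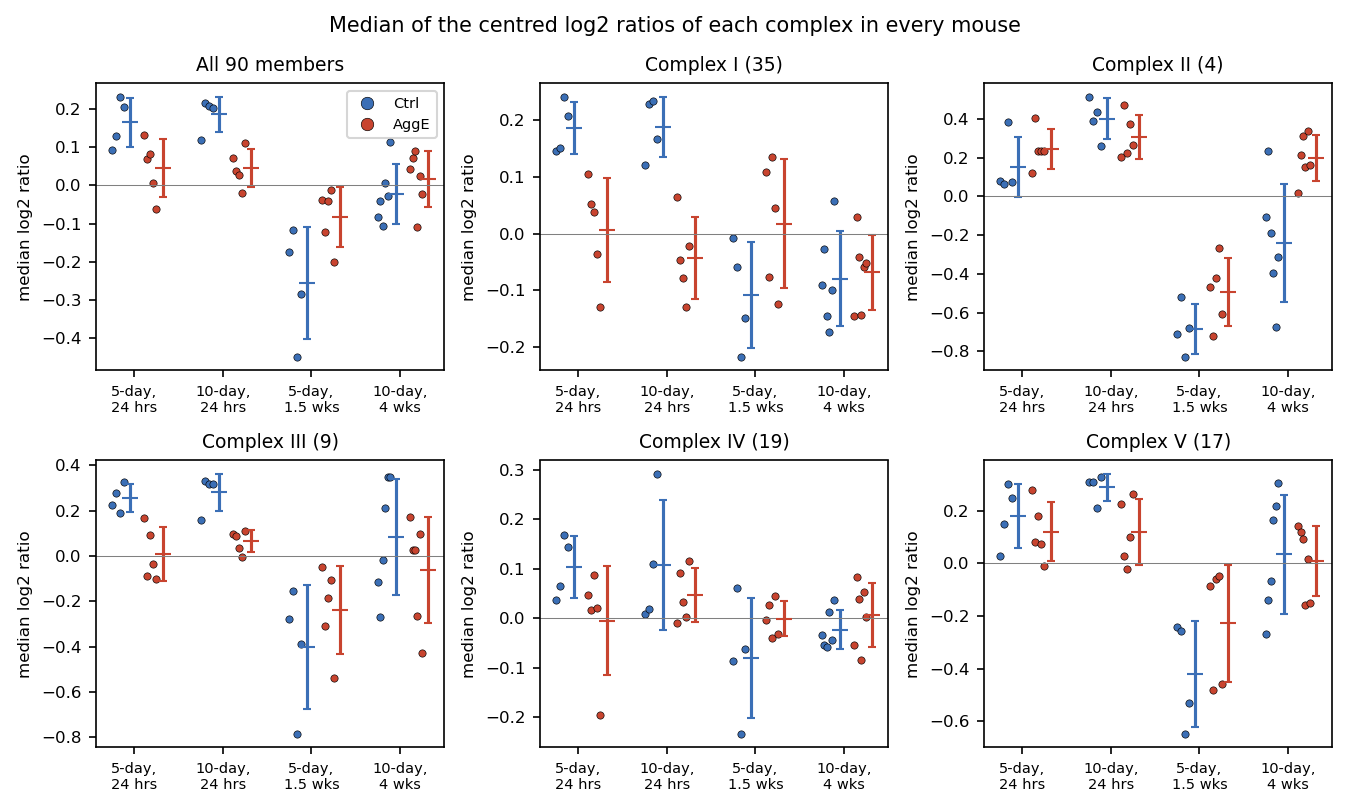
Median over all 90 members, and over the members of complexes I to V, of the log2 ratio centred on each gene's mean over 39 arrays (y axis), for every mouse by regimen and time (x axis). Points are mice (Ctrl blue, AggE red), and the bar beside them is the group mean ± SD. Complex I shows no overlap of Ctrl and AggE at 24 hrs after both regimens, and complex II is lowest at 1.5 wks.

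By complex, Ctrl and AggE livers did not overlap at 24 hrs after either regimen for complexes I and III. They lay on different slides there, so exposure and slide cannot be told apart. Complex I medians were 0.15 to 0.24 in Ctrl against -0.13 to 0.11 in AggE livers at 24 hrs post-5-day stressor, and 0.12 to 0.23 against -0.13 to 0.06 at 24 hrs post-10-day stressor. Complex III medians, from the complex that passes electrons from coenzyme Q to cytochrome c, were 0.19 to 0.33 in Ctrl against -0.10 to 0.17 in AggE livers after 5 days and 0.16 to 0.33 against -0.01 to 0.11 after 10 days. In complexes II, IV and V the groups overlapped at 24 hrs after both regimens. The Ctrl groups also differed from each other across times: the Ctrl mean of the complex II medians was 0.15 ± 0.16 (SD, n = 4) and 0.40 ± 0.11 (SD, n = 4) at 24 hrs after 5 and 10 days, -0.68 ± 0.13 (SD, n = 4) at 1.5 wks and -0.24 ± 0.30 (SD, n = 6) at 4 wks. The Ctrl groups lay on different slides apart from 1 slide shared by 1 liver at 1.5 wks and 3 livers at 4 wks, and the part of slide in these differences was not tested. All arrays of 24 hrs were scanned on 1 date and all arrays of 4 wks on another. At 1.5 wks AggE mouse 2 and Ctrl mouse 4 were scanned with the 4 wks arrays, and the rest with those of 24 hrs. Time and scan date cannot be told apart between 24 hrs and 4 wks.

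At 24 hrs post-5-day stressor 73 of 90 members lay lower in AggE than in Ctrl livers and 17 higher, with a median difference of -0.11 on the log2 scale, where the median over all genes was 0.00 and over the 3328 genes well above background on all arrays -0.02. The members' median was -0.074 with 29 higher without background correction, and -0.195 with 13 higher without normalization between arrays. With the series table it was -0.282. In these groups 15.7% to 28.2% of all probes were well above background on AggE arrays and 25.3% to 31% on Ctrl arrays. The part of this in the members' values was not tested. Cox6b1 and Uqcr11 were called lower, but not with slide as a random block or with any 1 of the Ctrl livers left out. Among the members 2 were lower at an adjusted p of 0.05 or less and 0 higher (limma, Benjamini-Hochberg over all 24372 probes), beside 2.02% lower and 1.69% higher of all genes, so that the share of called members (2.22%) was near the background. At an unadjusted p of 0.05 or less 13 members were lower and 1 higher, beside 9.24% and 7.87% of all genes. The 13 lower became 4 without AggE mouse 5 (8.43% of all genes in that fit), 6 without Ctrl mouse 1 (7.52%), and 8 without AggE mouse 4 (8.92%) or Ctrl mouse 4 (7.86%), and 20 with the groups of the contrast alone (10.5%). In 7 members every AggE liver lay below every Ctrl liver, which held for 5.25% of all genes: Atp5o, Cox5a, Cox6b1, Ndufb10, Ndufb8, Uqcr11 and Uqcrc1.

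Uqcr11, a small subunit of complex III, had log2 ratios of 1.33, 1.04, 0.96 and 1.49 in Ctrl and of 0.64, 0.72, 0.88, 0.60 and 0.01 in AggE livers. All AggE livers lay below all Ctrl livers, mouse 5 by far the most. The difference was -0.64 ± 0.18 (SE; 1.55-fold lower; limma adjusted p = 0.0441). Cox6b1, a subunit on the intermembrane side of complex IV close to the site where cytochrome c binds, had log2 ratios of 0.65, 0.50, 0.56 and 0.65 in Ctrl and of 0.20, 0.41, 0.24, 0.45 and -0.04 in AggE livers. The groups did not overlap, and mouse 5 was again the lowest. The difference was -0.34 ± 0.10 (SE; 1.26-fold lower; limma adjusted p = 0.0409). AggE mouse 5 was the only liver of its group on a second slide.

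Uqcrc1, a core subunit of complex III, did not pass. Its log2 ratios were 1.04, 1.29, 0.85 and 0.62 in Ctrl and 0.41, 0.42, 0.50, 0.40 and 0.26 in AggE livers, without overlap, a difference of -0.56 ± 0.19 (SE; limma adjusted p = 0.0913). Ndufaf5, a complex I assembly factor, was next to the called members by p (limma adjusted p = 0.056), but was not well above background in any liver of these groups, so no difference is given. A second, dimmer Uqcrc1 probe differed by -0.20 (limma adjusted p = 0.771). Among the complex I members 33 of 35 were lower, among them 27 of the 28 accessory subunits, of which Ndufb9 was the lowest at -0.48 (limma adjusted p = 0.239) and Ndufab1, the mitochondrial acyl carrier protein, differed by -0.32 (limma adjusted p = 0.165). Complex III had 8 of 9 members lower (median -0.20), complex IV 13 of 19 (median -0.17) and complex V 13 of 17 (median -0.09), whereas complex II had 2 of 4 lower (median 0.07). Both calls ended with slide as a random block, where the median difference was -0.16. There 0 members were called, beside 0.0588% of all genes, and 5 were lower at the unadjusted threshold, beside 4.8%. Leaving out mice in turn gave 0 to 2 calls, beside 1.61% to 3.76% of all genes, and 0 whichever Ctrl liver was left out.

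At 24 hrs post-10-day stressor 71 of 90 members lay lower in AggE livers and 19 higher, with a median difference of -0.12, where the median over all genes was 0.00 and over the 3328 bright genes -0.01. The members' median was -0.205 with 13 higher without normalization between arrays, and -0.193 with Cy5 alone. No member passed the adjusted threshold (limma, 0 higher and 0 lower), beside 0.0882% higher and 0.0118% lower of all genes. At an unadjusted p of 0.05 or less 12 members (13.3%) were lower and 0 higher, beside 1.32% and 1.65% of all genes. The 12 lower became 6 without AggE mouse 3 (1.39% of all genes in that fit), 7 without AggE mouse 2 (1.33%) and 8 to 15 without another liver, and 24 with the groups of the contrast alone (2.29%). In 10 members (11.1%) every AggE liver lay below every Ctrl liver, beside 0.752% of all genes: Atp5a1, Atp5l, Cox5a, Ndufa1, Ndufa12, Ndufa5, Ndufab1, Ndufb3, Ndufs1 and Uqcrb.

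Of the 12 members lower at the unadjusted threshold, 8 belonged to complex I, 3 to complex V and 1 to complex III. Atp5a1, the alpha subunit of the catalytic head of ATP synthase, had log2 ratios of -0.04, 0.05, -0.03 and -0.08 in Ctrl and of -0.37, -0.55, -0.56, -0.56 and -0.22 in AggE livers. The groups did not overlap, and the difference was -0.43 ± 0.12 (SE; unadjusted p = 0.00115; limma adjusted p = 0.556). A second Atp5a1 probe differed by -0.09 (limma adjusted p = 1). Ndufb10, an accessory subunit of the membrane arm of complex I, ran from 1.22 to 2.07 in Ctrl and from 0.72 to 1.41 in AggE livers. Its groups overlapped, AggE mouse 1 lying above 2 Ctrl livers, with a difference of -0.63 ± 0.19 (SE; limma adjusted p = 0.741). Ndufab1 had log2 ratios of 0.17, 0.21, 0.29 and 0.39 in Ctrl and of 0.13, -0.09, -0.25, -0.13 and -0.15 in AggE livers, without overlap, a difference of -0.36 ± 0.13 (SE; limma adjusted p = 1). With slide as a random block the median difference of the members was -0.12, but 2 members in place of 12 were lower at the unadjusted threshold, beside 0.206% of all genes.

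Of the 73 members lower after 5 days, 61 were lower after 10 days as well. The 2 comparisons share no array, but in both of them Ctrl and AggE livers lay on different slides, so exposure and slide cannot be told apart. Of the members 61 of 90 (67.8%) were lower in both and 7 (7.78%) higher in both. Of all genes 29.9% were lower in both and 29.7% higher in both. Among genes well above background on all arrays, 55 of 74 members (74.3%) and 37.2% of all such genes were lower in both. Ndufab1, Uqcr11, Ndufb10 and Atp5o were lower at the unadjusted threshold in both comparisons. The second Ndufab1 probe, well above background on all 39 arrays, differed by -0.01 after 5 days and -0.15 after 10 days (limma adjusted p = 0.985 and 1). Uqcr11 differed by -0.45 ± 0.18 (SE; limma adjusted p = 1) after 10 days. The difference between the regimens, 5-day minus 10-day, had a median of 0.02 over the members, 0 members passed the adjusted threshold beside 0.0353% of all genes, and 3 passed at an unadjusted p of 0.05 or less beside 6.63% of all genes.

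The regimen of the livers at 1.5 wks rests on their descriptions, while the titles of all 5 AggE livers have the prefix of the 10-day AggE livers and that of Ctrl mouse 4 differs from the other Ctrl titles. At 1.5 wks post-5-day stressor 71 of 90 members lay higher in AggE than in Ctrl livers and 19 lower, with a median difference of 0.13, where the median over all genes was 0.00 and over the 3328 bright genes 0.04. No member and no gene passed the adjusted threshold (limma, 0% of all genes higher and 0% lower). At an unadjusted p of 0.05 or less 3 members were higher and 0 lower, beside 1.41% and 0.952% of all genes. Every member had overlapping groups, while 0.817% of all genes had groups that did not overlap in either direction. All 4 complex II members, 8 of 9 complex III members (median 0.24), 16 of 19 complex IV members (median 0.22), 14 of 17 complex V members (median 0.15) and 25 of 35 complex I members (median 0.08) were higher.

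The 3 members with the smallest p at 1.5 wks were Atp5h, Atp5g3 and Cox7c. Atp5h, a subunit of the peripheral stalk of ATP synthase, had log2 ratios of -0.22, 0.01, -0.12 and -0.31 in Ctrl and of 0.66, -0.07, 0.31, -0.08 and -0.05 in AggE livers. The groups overlapped, and mice 1 and 3 of AggE stood above the rest, with a difference of 0.32 ± 0.13 (SE; limma adjusted p = 1). Atp5g3 encodes the c subunit of the rotating ring of ATP synthase. Its log2 ratios ran from -1.22 to -0.07 in Ctrl and from -0.71 to 0.48 in AggE livers, a difference of 0.65 ± 0.27 (SE; limma adjusted p = 1). Cox7c, a small subunit of complex IV, ran from -0.78 to -0.21 in Ctrl and from -0.52 to 0.17 in AggE livers, a difference of 0.40 ± 0.19 (SE; limma adjusted p = 1). On the shared slide, which held AggE mouse 5 and Ctrl mice 1 to 3, the median difference of the members was 0.03 and 48 of 90 were higher. Without normalization between arrays the median difference was 0.04 and 53 of 90 members were higher. Without Ctrl mouse 3, whose member median was the lowest of all livers, the median difference was 0.05.

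At 4 wks post-10-day stressor the members did not move one way: 43 lay higher and 47 lower in AggE livers, with a median difference of -0.02, where the median over all genes was 0.01 and over the 3328 bright genes -0.11. Without normalization between arrays 28 of 90 lay higher, with a median of -0.214, where it was -0.009 over all genes and -0.214 over the bright genes. Ndufb5, Sdha, Sdhb and Atp5d rose, and Atp5h, Ndufa5, Ndufb3 and Uqcr11 fell. These were 4 members higher and 4 lower at an adjusted p of 0.05 or less (limma), 4.44% of the members each, beside 1.38% and 2.53% of all genes. With slide as a random block only Ndufb5 was called, beside 0.17% of all genes. On the slide that held both groups Atp5d (-0.12) and Ndufa5 (0.05) went the other way. At an unadjusted p of 0.05 or less 15 members were higher and 15 lower (16.7% each), beside 9.98% and 12.1% of all genes. The 15 lower became 8 without Ctrl mouse 5 (11.2% of all genes in that fit) and 35 without normalization between arrays (14.5%). With slide as a random block 10 members were lower, beside 9.85% of all genes. There 6 were higher, for which the share of all genes is not given. In Ndufb5 alone every AggE liver lay above every Ctrl liver, which held for 0.617% of all genes. No member reached a 2-fold difference in any of the 4 comparisons.

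Complex II, which oxidises succinate in the tricarboxylic acid cycle and feeds coenzyme Q, was higher in all 4 of its members at 4 wks (median 0.49), though not in Sdhc on the slide that held both groups. Sdha, its flavoprotein, had log2 ratios of 0.01 to 0.98 in Ctrl (median 0.51) and of 0.97 to 1.30 in AggE livers (median 1.21). The groups touched only through Ctrl mouse 2, which lay above the lowest AggE liver, and the difference was 0.67 ± 0.14 (SE; 1.59-fold higher; limma adjusted p = 0.0106). The second Sdha probe differed by 0.13 (limma adjusted p = 0.633). Sdhb, the iron-sulfur subunit, ran from -0.53 to 0.14 in Ctrl (median -0.17) and from -0.09 to 0.77 in AggE livers (median 0.46). AggE mouse 1 alone lay within the Ctrl range, and the difference was 0.63 ± 0.16 (SE; 1.54-fold higher; limma adjusted p = 0.0282). Sdhc and Sdhd, the membrane anchors, differed by 0.36 (limma adjusted p = 0.29) and 0.17 (limma adjusted p = 0.571).

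Ndufb5, an accessory subunit of the membrane arm of complex I, ran from -0.38 to 0.12 in Ctrl (median -0.08) and from 0.24 to 0.94 in AggE livers (median 0.46). The groups did not overlap, and the difference was 0.58 ± 0.11 (SE; 1.50-fold higher; limma adjusted p = 0.00826). Atp5d, the delta subunit of the ATP synthase head, ran from -1.12 to -0.23 in Ctrl (median -0.74) and from -0.88 to 0.46 in AggE livers (median 0.12). AggE mice 1 and 6 lay within the Ctrl range, and the difference was 0.72 ± 0.18 (SE; 1.65-fold higher; limma adjusted p = 0.0258). On the slide that held both groups the Atp5d difference was -0.12, and with slide as a random block this gene was not called. The study counted differing genes at a 2-fold change or more, which no member reached here, and predicted activation of this pathway at 4 wks. All 4 of the members that rose are among 8 subunits that the study itself listed from these livers at 4 wks, so their direction is not independent evidence. Of the other 4, Ndufa10 differed by 0.77 (limma adjusted p = 0.0872), Cox6a2 by 0.46 (limma adjusted p = 0.587), Atp5b by -0.25 (limma adjusted p = 0.407) from its brightest probe, and Uqcrc1 by -0.07 (limma adjusted p = 0.875), with 0.68 (limma adjusted p = 0.0785) from the second Uqcrc1 probe. The other Atp5b probes went the opposite way, at 0.69 (limma adjusted p = 0.105) and 0.20 (limma adjusted p = 0.437).

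Ndufa5, an accessory subunit of the matrix arm of complex I, ran from 0.99 to 1.76 in Ctrl (median 1.39) and from 0.38 to 1.70 in AggE livers (median 0.62). AggE mouse 1 was at 1.70 and the other 5 AggE livers were below every Ctrl liver, a difference of -0.62 ± 0.15 (SE; 1.54-fold lower; limma adjusted p = 0.024). Ndufb3, another accessory subunit of complex I, ran from -0.22 to 1.04 in Ctrl (median 0.65) and from -0.27 to 0.74 in AggE livers (median -0.15). Here AggE mouse 1 stood with the Ctrl livers and Ctrl mouse 2 with the AggE livers, and the difference was -0.58 ± 0.15 (SE; 1.50-fold lower; limma adjusted p = 0.0346). Uqcr11 ran from 1.11 to 1.93 in Ctrl (median 1.76) and from 0.84 to 1.43 in AggE livers (median 1.00). Its groups overlapped, with Ctrl mice 1 and 3 the lowest of theirs, and the difference was -0.58 ± 0.16 (SE; 1.49-fold lower; limma adjusted p = 0.039). Atp5h ran from 0.01 to 0.67 in Ctrl (median 0.42) and from -0.25 to 0.09 in AggE livers (median -0.07). Ctrl mouse 1 alone lay within the AggE range, the difference was -0.46 ± 0.11 (SE; 1.37-fold lower; limma adjusted p = 0.0229), and the second Atp5h probe differed by -0.35 (limma adjusted p = 0.192).

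The members that rose at 4 wks did not pass the threshold at the earlier times, and the direct test of 24 hrs against 4 wks called none of them. At 24 hrs after 5 days, 24 hrs after 10 days and 1.5 wks, in this order, Sdha differed by -0.01, -0.14 and 0.16 (at 1.5 wks well above background in 2 of 4 Ctrl and 3 of 5 AggE livers), Sdhb by 0.15, 0.12 and 0.16, and Atp5d by 0.05, 0.02 and 0.08. Ndufb5 differed by -0.17 and 0.15 at 24 hrs, and at 1.5 wks its probe was well above background in 2 of 4 Ctrl and 1 of 5 AggE livers, so no difference is given. The membrane anchors of complex II were likewise small, with -0.08, -0.07 and 0.03 for Sdhc and 0.19, -0.08 and 0.31 for Sdhd. The electron carriers Cyc1 (0.13, -0.15 and 0.24) and Cycs (-0.09, -0.19 and 0.06), and the study-listed Atp5b (-0.15, 0.20 and 0.04), Ndufa10 (0.01, -0.03 and -0.08) and Cox6a2 (0.28, 0.47 and 0.10, with 2 of 4 Ctrl and 4 of 5 AggE livers well above background after 5 days and at 1.5 wks) did not pass either. None of these genes had an adjusted p of 0.05 or less before 4 wks (limma).

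**Figure D2:**
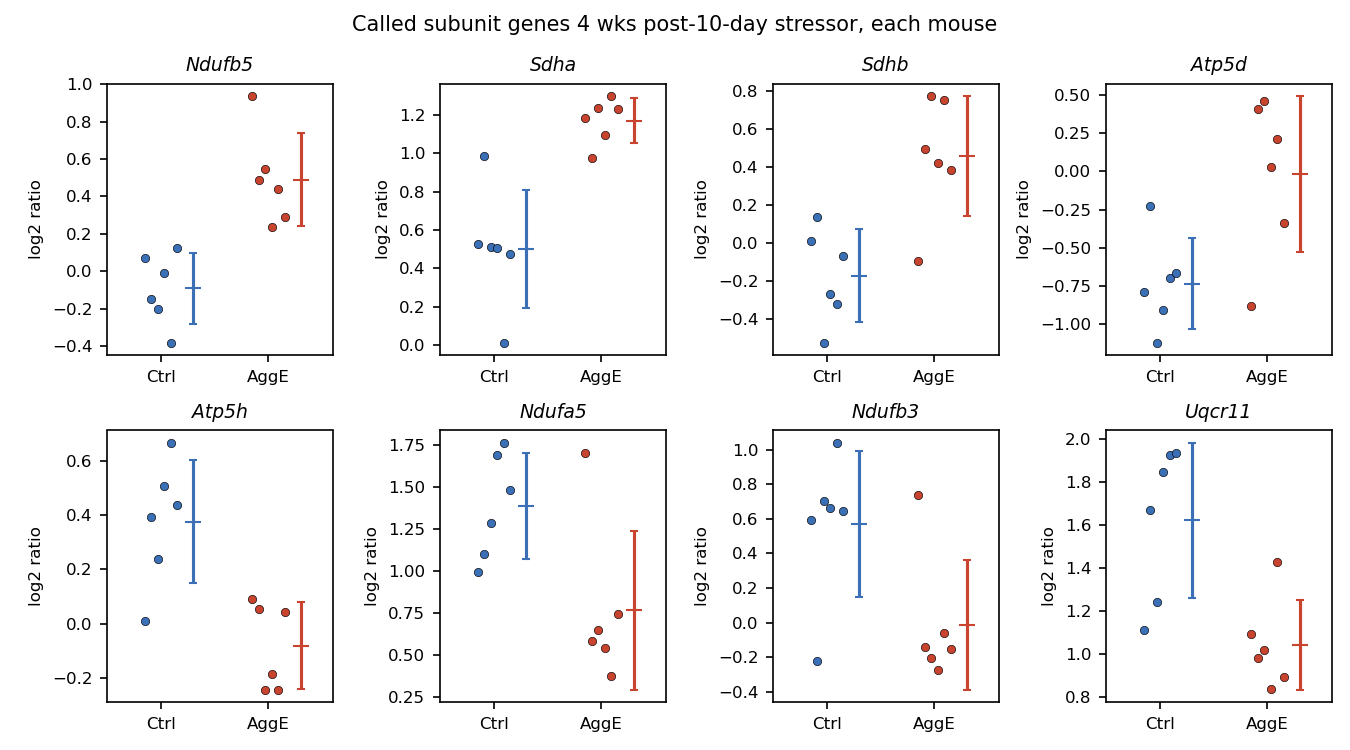
Log2 ratio over the reference RNA (y axis) of the 8 members with an adjusted p of 0.05 or less at 4 wks post-10-day stressor, in each of 6 Ctrl (blue) and 6 AggE (red) livers, with the group mean ± SD beside the points. The upper row holds the 4 members that rose and the lower row the 4 that fell, and only in Ndufb5 do the groups not overlap.

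Within complex I at 4 wks, 6 of the 7 catalytic core subunits were higher (median 0.26), of which Ndufs8 differed by 0.41 (limma adjusted p = 0.0896) and Ndufs3 was the exception at -0.35 (limma adjusted p = 0.142). Of the 28 accessory subunits 12 were higher and 16 lower (median -0.07), with 4 higher and 10 lower at an unadjusted p of 0.05 or less, beside the 9.98% and 12.1% of all genes. Cyc1, the cytochrome c1 of complex III, differed by 0.55 ± 0.17 (SE; limma adjusted p = 0.0597), while 7 of the 9 complex III members were lower. Cycs, the mobile electron carrier, differed by -0.12 (limma adjusted p = 0.813), with AggE mouse 1 at 0.62 and the other 5 AggE livers between -0.99 and -0.50.

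The number of calls at 4 wks varied with the livers and with slide in the fit. Ndufb5 was called with slide as a random block and with each liver of these groups left out in turn. It was not called with processed signals, Cy5 alone, the series table or the groups of the contrast alone (limma adjusted p = 0.0764, 0.0927, 0.149 and 0.0631). On the shared slide, which held AggE mouse 1 and Ctrl mice 4 to 6, the differences were 1.03 for Ndufb5, 0.85 for Sdha, -0.81 for Uqcr11 and -0.45 for Atp5h, but 0.13 for Sdhb, -0.12 for Atp5d, 0.05 for Ndufa5 and -0.04 for Ndufb3. Of the other complex II members, Sdhd differed by 0.47 and Sdhc by -0.31 there. With slide as a random block only Ndufb5 was called, beside 0.17% of all genes. A fixed block for slide draws on the shared slide alone. It gave the same differences, from 1 AggE liver, so its calls are not given. With all livers 8 members (8.89%) were called, beside 3.91% of all genes. The number called was 28 (31.1%) without AggE mouse 1, of which 17 were higher, beside 9.55% of all genes in the same fit, and 18 without Ctrl mouse 2, beside 7.99%. It was 5 without AggE mouse 5 or Ctrl mouse 3 (2.84% and 1.19% of all genes), 3 without AggE mouse 2 or Ctrl mouse 5 (0.758% and 2.46%), and 2 without AggE mouse 3 or Ctrl mouse 4 (0.629% and 1.66%). Ndufb5 and Sdha were called in all 12 of these fits, Atp5h in 9, Atp5d in 8, Ndufa5 in 7, Sdhb in 6, Uqcr11 in 5 and Ndufb3 in 2.

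**Figure D3:**
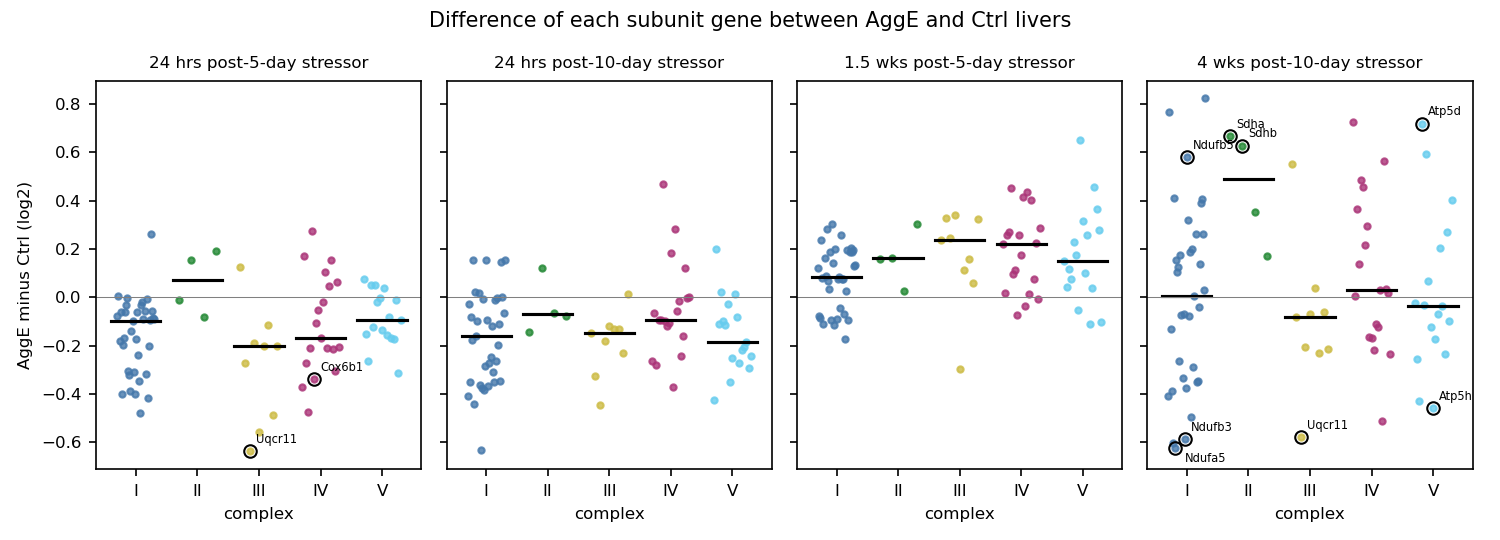
Difference AggE minus Ctrl on the log2 scale (y axis) of every subunit gene of complexes I to V (x axis) in the 4 comparisons. A point is a gene, the black bar is the median of a complex, and a ringed, named point has an adjusted p of 0.05 or less. Most points lie below 0 at 24 hrs and above 0 at 1.5 wks, and at 4 wks they spread to both sides with complex II wholly above 0.

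Promoter sequences are shown for 4 of the called members that hold a match to a motif of factors known to bind promoters of respiratory chain genes. The motifs searched on both strands, from 250 bases before the start site to 50 from it, were GCATGCGC for NRF1, CCGGAAG for the ETS family to which GABPA belongs, AAGATGGC for YY1 and AAGGTCA for estrogen-related receptors. RefSeq promoters (GRCm38.p6) were matched for 74 of 90 members. Of these, 16.2% held the NRF1 letters, 24.3% the ETS letters, 13.5% the YY1 letters and 10.8% the estrogen-related receptor letters, whereas of 27025 genes with a promoter 3.05%, 9.93%, 3.19% and 5.38% did. The median share of G and C was 58.4% in the members' promoters and 52.8% over all genes, and its part in these matches was not tested. Below, 150 bases before the start site and 30 from it are printed on the strand of the gene, with matches in capitals. The windows are chr4:140961121-140961300 (+) for Sdhb, chr10:80406792-80406971 (-) for Uqcr11, chr7:30626085-30626264 (-) for Cox6b1 and chr11:115419890-115420069 (-) for Atp5h.
Sdhb: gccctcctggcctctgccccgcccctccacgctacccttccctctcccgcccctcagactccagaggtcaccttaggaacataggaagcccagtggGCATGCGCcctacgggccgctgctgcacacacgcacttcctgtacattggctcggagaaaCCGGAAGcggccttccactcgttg
Uqcr11: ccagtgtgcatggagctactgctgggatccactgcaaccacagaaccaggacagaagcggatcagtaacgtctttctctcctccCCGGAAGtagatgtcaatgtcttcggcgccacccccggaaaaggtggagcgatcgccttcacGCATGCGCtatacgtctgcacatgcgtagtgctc
Cox6b1: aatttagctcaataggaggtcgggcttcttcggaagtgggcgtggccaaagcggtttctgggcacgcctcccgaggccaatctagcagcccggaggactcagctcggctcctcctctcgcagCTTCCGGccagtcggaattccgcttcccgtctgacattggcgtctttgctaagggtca
Atp5h: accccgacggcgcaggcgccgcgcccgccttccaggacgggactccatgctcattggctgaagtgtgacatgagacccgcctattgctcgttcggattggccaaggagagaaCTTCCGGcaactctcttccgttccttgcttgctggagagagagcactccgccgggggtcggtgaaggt
Sdhb, which rose at 4 wks, and Uqcr11, which fell at 4 wks, both held an NRF1 and an ETS match, and Cox6b1 and Atp5h held an ETS match on the opposite strand. Among members past the unadjusted threshold at 4 wks, the ETS letters were found in 6 of 13 promoters of those higher and 3 of 13 of those lower, and the NRF1 letters in 2 and 1. The Sdha, Ndufb5, Atp5d, Ndufa5 and Ndufb3 windows held no match. A match is a description of the letters and not of binding.

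Levels of 4 of these genes are given over all 39 livers. Sdha was lowest at 1.5 wks, at -0.32 ± 0.17 (SD, n = 4) in Ctrl and -0.16 ± 0.27 (SD, n = 5) in AggE livers, but its probe was well above background there in 2 of 4 Ctrl and 3 of 5 AggE livers only, so these levels are imprecise. It was highest in Ctrl livers 24 hrs post-10-day stressor, at 1.20 ± 0.22 (SD, n = 4). AggE livers at 4 wks, at 1.17 ± 0.12 (SD, n = 6), lay within the spread of that group, and Ctrl livers at 4 wks were at 0.50 ± 0.31 (SD, n = 6). Sdhb was lowest in Ctrl livers at 1.5 wks, at -0.18 ± 0.14 (SD, n = 4), and at 4 wks, at -0.17 ± 0.24 (SD, n = 6), which did not differ beyond their spread, and highest after AggE at 24 hrs post-10-day stressor, at 0.93 ± 0.29 (SD, n = 5). For Uqcr11 the lowest group was AggE at 24 hrs post-5-day stressor, at 0.57 ± 0.33 (SD, n = 5), and the highest was Ctrl at 4 wks, at 1.62 ± 0.36 (SD, n = 6). Cox6b1 ran from 0.14 ± 0.15 (SD, n = 6) in Ctrl at 4 wks to 0.59 ± 0.08 (SD, n = 4) in Ctrl at 24 hrs post-5-day stressor. Levels of groups at different times were not tested, and between 24 hrs and 4 wks time cannot be told apart from scan date.

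**Figure D4:**
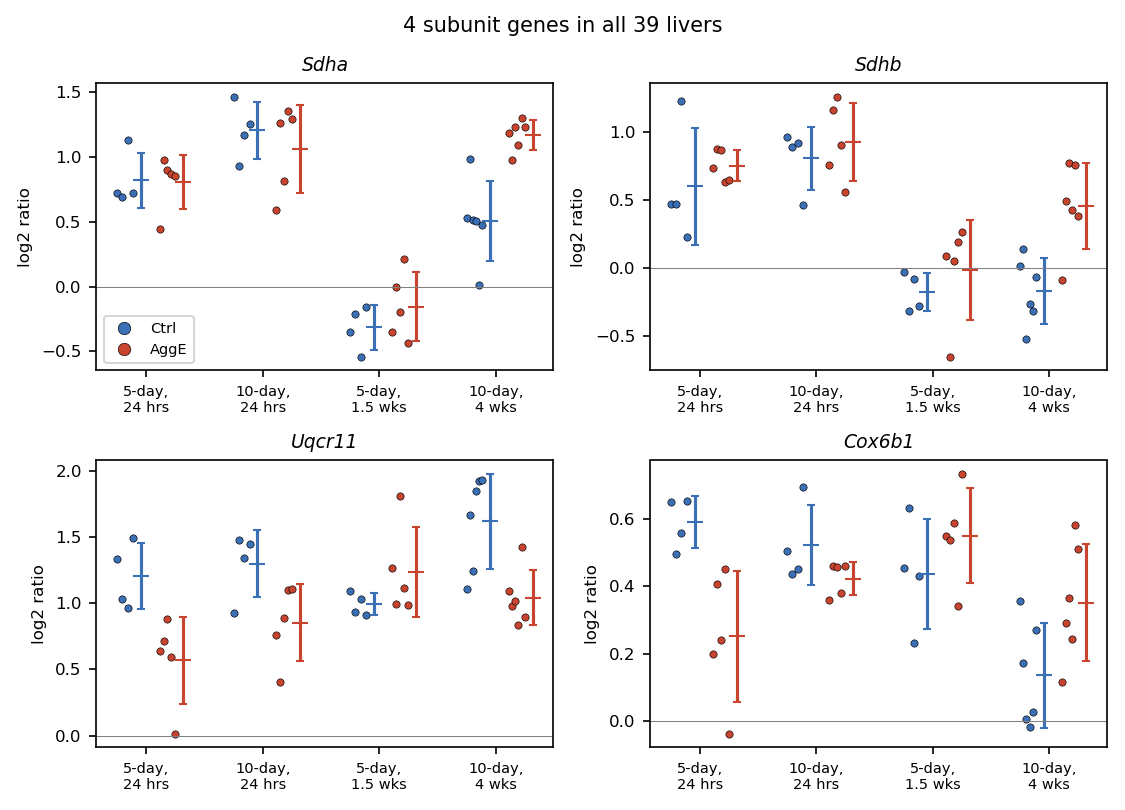
Log2 ratio over the reference RNA (y axis) of Sdha, Sdhb, Uqcr11 and Cox6b1 in all 39 livers by regimen and time (x axis), with the group mean ± SD beside the points (Ctrl blue, AggE red). Sdha is lowest in both groups at 1.5 wks, where its probe was not well above background in 4 of 9 livers, and Uqcr11 is lower in AggE than in Ctrl livers at 24 hrs and at 4 wks.

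The responses at the early and late times were then compared directly. For the 5-day regimen the difference AggE minus Ctrl at 24 hrs minus that at 1.5 wks was negative in 78 of 90 members (median -0.25, all genes 0.00, bright genes -0.06). Of the members 12 were lower at an unadjusted p of 0.05 or less beside 4.1% of all genes, and 0 passed the adjusted threshold (limma) beside 0.0999% of all genes. Uqcr11 (-0.88 ± 0.26, SE, limma adjusted p = 0.263) and Cox6b1 (-0.45 ± 0.14, SE, limma adjusted p = 0.279) had the smallest p. For the 10-day regimen the difference at 24 hrs minus that at 4 wks was negative in 60 of 90 members (median -0.16, all genes -0.004, bright genes 0.09). Of the members 17 were lower at the unadjusted threshold beside 4.63% of all genes, and 0 passed the adjusted one beside 0.0823%. All 4 complex II members were lower in this comparison (median -0.46).

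Tissue-specific isoforms form a small group within complex IV. Cox4i2, Cox7b2 and Cox8c were well above background on 1, 0 and 1 of 39 arrays, so no difference is given for them. Cox6b2, known from testis, was well above background in all 4 Ctrl livers and in none of the 5 AggE livers at 24 hrs post-5-day stressor, where between 15.7% and 28.2% of all probes were well above background on AggE arrays and between 25.3% and 31% on Ctrl arrays. Its Cy5 level, normalized per channel and open to such differences between arrays, was at least 1.43-fold higher in Ctrl livers, whereas its log ratio over the reference was 1.08-fold lower in AggE livers (-0.10; limma adjusted p = 0.896). The muscle isoforms varied widely among livers of a group: Cox8b ran from -0.02 to 3.14 in Ctrl livers at 24 hrs post-5-day stressor and from -0.05 to 3.77 in Ctrl livers at 4 wks, and Cox6a2 from -2.39 to -0.04 and from -2.09 to -1.16. Both were well above background in 2 of the 4 Ctrl livers at 24 hrs post-5-day stressor, and Cox8b in 5 of the 6 at 4 wks. In the same livers the mean log2 ratio of 8 skeletal muscle genes (Ckm, Acta1, Myh4 and others) ran from -0.18 to 2.67 and from -0.22 to 1.75, with Ckm well above background on 17 arrays, and the part of muscle RNA in the isoforms' values was not tested. None of the 7 isoforms passed the threshold in any comparison. Of their counterparts in most tissues, Cox4i1 differed by 0.73 (limma adjusted p = 0.193), Cox8a by 0.57 (limma adjusted p = 0.108), Cox6a1 by 0.49 (limma adjusted p = 0.349) Cox7a2 by -0.22 (limma adjusted p = 0.546), Ndufa4 by -0.23 (limma adjusted p = 0.596) and Cox7b by -0.12 (limma adjusted p = 0.784) at 4 wks. The muscle isoforms Cox7a1 and Cox8b differed by -0.17 and 0.03 there (limma adjusted p = 0.738 and 0.985).

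Genes that build or feed the chain were counted in the same way, beside 1.69% of all genes called higher and 2.02% lower at 24 hrs post-5-day stressor and 1.38% and 2.53% at 4 wks. With slide as a random block 0.0588% and 0.17% of all genes were called at these times, and the lists were not counted in that fit. Of 37 assembly factors of the complexes, 0 passed the adjusted threshold before 4 wks, with 3 lower and 0 higher at the unadjusted threshold at 24 hrs post-5-day stressor, and at 4 wks 1 was higher and 1 lower. Of 18 genes of mitochondrial biogenesis, 2 were lower at 24 hrs post-5-day stressor, of which Polg2, the accessory subunit of the mitochondrial DNA polymerase, fell by 0.42 on the log2 scale (limma adjusted p = 0.0121). Of 11 coenzyme Q genes, 1 was higher and 2 lower at 24 hrs post-5-day stressor, of which Coq6, a hydroxylase of the pathway, fell by 0.38 on the log2 scale (limma adjusted p = 0.018; well above background on 20 arrays) and Coq3 was well above background on 2 of 39 arrays only. At 4 wks 1 coenzyme Q gene was higher. Of 17 genes of the tricarboxylic acid cycle and pyruvate dehydrogenase, 2 were higher and 2 lower at 4 wks. Oxa1l, which inserts proteins into the inner membrane, rose by 0.44 (limma adjusted p = 0.048) at 4 wks, and Cox20, an assembly factor of complex IV, fell by 0.41 on the log2 scale (limma adjusted p = 0.0273). Suclg1 and Suclg2, subunits of succinyl-CoA ligase, which makes the succinate that complex II oxidises, rose by 0.78 (limma adjusted p = 0.0113) and 0.59 (limma adjusted p = 0.0179), while Idh3g, a subunit of isocitrate dehydrogenase, fell by 0.43 on the log2 scale (limma adjusted p = 0.0189). Of 11 genes of nucleotide exchange and uncoupling 0 passed in any comparison, with 0 to 2 in a direction at the unadjusted threshold.

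Markers of other cells were read beside these results. No gene of the lists for hepatocytes (9 tested), skeletal muscle (8), red cells (3), leukocytes (8), adipose tissue (6) or pancreas (5) passed the adjusted threshold in any comparison. The hepatocyte genes had a median difference of -0.05 at 24 hrs after both regimens, 0.25 at 1.5 wks and -0.17 at 4 wks. The skeletal muscle genes differed by a median of -0.03, 0.46, 0.21 and 0.34 in the same order of comparisons. In that order the medians were 0.04, 0.12, 0.07 and -0.05 for the leukocyte genes, of which Ptprc was well above background on 4 arrays, 0.24, 0.23, 0.25 and 0.13 for the red cell genes, -0.03, -0.01, -0.03 and 0.02 for the adipose genes, and -0.08, -0.01, -0.08 and 0.12 for the pancreas genes. The part of these cells in the members' values was not tested.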

How the data were processed

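Two-colour Agilent arrays of 39 livers were read, 1 array per mouse. The deposited intensity values are median Cy5 and Cy3 spot signals and background medians that the authors obtained with Agilent Feature Extraction (version 11.5.1.1 in the submitters' processing notes), not yet normalized. The authors' series table of deposited log10 ratios, whose centring is not stated, was multiplied to the log2 scale and, like the processed signals, served as an alternative only.

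Signals were background corrected (normexp, offset 50), normalized by loess within arrays and by quantiles between arrays, and 1639 control spots of 45018 spots per array were left out of the tests. Outlier spots were set missing. Spots of a probe were averaged, without a filter on low values, and 24372 probes with a RefSeq accession, for 17013 genes, were fitted with limma 3.58.1 in R 4.3.3 over all 8 groups, without covariates. P-values were two-sided and adjusted by Benjamini-Hochberg over all probes. Normalization between arrays makes differences relative to the other genes of an array, and the number of arrays limits the precision.

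Named members passed an adjusted p of 0.05 or, where under 3 did, had the 3 smallest p-values of a comparison. Complex II, Cyc1, Cycs, the 8 subunits the study listed, and tissue isoforms with their counterparts were named besides, as were the 3 called genes of the other lists with the smallest p-values in a comparison, while Oxa1l, Cox20 and members singled out by their overlap, slide or part of a complex were chosen after their values were seen. The members and the lists (assembly, biogenesis, tricarboxylic acid cycle, exchange, coenzyme Q, isoforms and markers of cell types) were chosen with earlier results of these data known. The code was tested on simulated data. Promoters came from RefSeq tables (GRCm38.p6). Alternatives changed the background correction, normalization, signal, probes, samples, array weights, and slide and replicate blocks.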

Additional observations from a re-analysis of the deposited data

Results flagged for a closer look

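In 84 groups of values from 4 to 6 livers, 9 values from 6 livers stood far from the rest of their group, where chance flags about 1 in 20 groups. All values are log2, and medians are over members centred on each gene's mean over the 39 arrays. In Ctrl at 24 hrs post-10-day stressor, mouse 1 had a median over all members of 0.119 (others 0.202 to 0.217) and over complex III of 0.156 (others 0.315 to 0.331), and mouse 3 had a complex V median of 0.212 (others 0.308 to 0.327). In Ctrl at 24 hrs post-5-day stressor, mouse 3 had a complex II median of 0.386 (others 0.066 to 0.079). AggE mouse 5 at 24 hrs post-5-day stressor, alone of its group on a slide, had a complex IV median of -0.196 (others 0.016 to 0.088).

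At 4 wks post-10-day stressor, AggE mouse 1 stood apart in centred Cycs, at 1.164 (others -0.446 to 0.047), and in the log2 ratios of Ndufb3, at 0.738 (others -0.272 to -0.058), and Ndufa5, at 1.701 (others 0.377 to 0.746). It was the only AggE liver of its group on its slide, beside 3 Ctrl livers. Ctrl mouse 2 had an Ndufb3 log2 ratio of -0.224 (others 0.594 to 1.039). The part of slide in these values was not tested.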

How the results depend on the processing

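The median difference of the members kept its sign under every alternative at 24 hrs and at 1.5 wks, where without normalization between arrays or with Aquantile it was 0.042 in place of 0.126 and 53 in place of 71 members were higher. There it was 0.198 (77 higher) with processed signals and 0.028 (48 higher) with slide as a fixed block. Members lower at the unadjusted threshold of 0.05 numbered 4 to 20 over the alternatives at 24 hrs post-5-day stressor, 2 to 24 at 24 hrs post-10-day stressor and 8 to 35 at 4 wks. The number of called members varied at 24 hrs and at 4 wks, while at 1.5 wks it was 0 under every alternative. At 24 hrs post-5-day stressor (2 called) it was 0 with processed signals, without normalization between arrays, with Aquantile (which leaves log ratios as they are) and with the series table. It was also 0 with probes well above background, with the groups of the contrast alone and with slide as a random block. It was 1 with Cy5 alone (5% of all genes) and with the replicate block (2.15%). It was also 1 without background correction (5.67%), but that member (Ndufaf7) was called higher, while both calls of the report were lower. An offset of 16 called 1 higher (Cox4i2) and 1 lower (Ndufaf5), both dim and neither among the calls of the report, and array weights gave 3 lower, beside 6.12% and 8.25% of all genes. The median there (-0.11) was -0.195 without normalization between arrays or with Aquantile and -0.282 with the series table. At 24 hrs post-10-day stressor (0 called) array weights gave 2, beside 0.335% of all genes. The median (-0.115) was -0.205 without normalization between arrays or with Aquantile and -0.193 with Cy5 alone. At 4 wks 8 were called, beside 3.91% of all genes. The number was 0 with processed signals, Cy5 alone and the series table. It was 1 with the groups of the contrast alone (0.435% of all genes) and with slide as a random block (0.17%). It was 4 without background correction (1.21%), 5 with an offset of 16 (1.4%) and 21 with array weights (9.53%). It was 25, of which 7 were higher and 18 lower (10.3%), without normalization between arrays or with Aquantile, where the median was -0.214. For 24 hrs minus 4 wks (0 called) array weights gave 3. The cause was not tested. Leaving out mice in turn gave 0 to 2 calls at 24 hrs post-5-day stressor, beside 1.61% to 3.76% of all genes. There were 0 whichever Ctrl mouse was left out and 1 without AggE mouse 1, 3, 4 or 5. At 4 wks there were 2 to 28, beside 0.629% to 9.55% of all genes. For 24 hrs minus 4 wks there were 0 to 1 (1 without AggE mouse 1 at 4 wks).

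Replicate numbers did not pair the mice: same-numbered livers had correlations of -0.423 to 0.493 in their deviations. With the replicate block 1 member was called at 24 hrs post-5-day stressor, beside 2.15% of all genes, and 6 at 4 wks, beside 2.83%. Slide as a fixed block was not run at 24 hrs, where no slide held both groups. Restricted to members well above background on all arrays, a choice made after seeing the data, the medians were -0.143, -0.139, 0.153 and -0.068 at 24 hrs after 5 and 10 days, 1.5 wks and 4 wks. Ndufaf5, Ndufaf7 and the dim isoforms have signals near background, which limits their values.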
